A study of Mus musculus with 4 samples.

Results

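The neurotrophins and their receptors were followed here through the m6A peaks over the exons of 6 genes: Bdnf and Ntf3, which encode secreted ligands, Ntrk2 and Ntrk3, which encode the receptor tyrosine kinases TrkB and TrkC, Ngfr, which encodes the p75 neurotrophin receptor, and Sort1, which encodes sortilin. The genes were listed by name, and a peak belonged to a gene when it shared at least 1 base with an exon of that gene in GENCODE release M21 (mouse build mm10). All 6 of the 6 listed genes held peaks, and of the 21951 annotated protein-coding genes 12472 had a peak in either list. In replicate 1, 18 of 38533 peaks lay over their exons, and in replicate 2, 20 of 30134.

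The study mapped m6A across the transcriptome with m6A-seq, in which fragmented RNA is bound by an antibody against m6A and sequenced beside the input RNA that did not meet the antibody. Of its 4 samples, 2 are immunoprecipitated RNA (IP) and 2 are input, and peak lists are at hand for the IP samples. All 4 came from whole brain of mice aged 4 weeks, with C57BL/6J as the labelled strain. The description of the series gives the mice as Prrc2a flox/flox, that is, with both alleles of Prrc2a (the candidate m6A reader of the study) flanked by loxP sites and with no Cre driver named. There is no second condition, so every comparison below is between positions, genes or replicates. How many animals stand behind a replicate, and their sex, is not given in the sources used here.

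N6-methyladenosine (m6A) is a methyl mark placed on adenosines of mRNA, mostly within the sequence DRACH (D stands for any base but C, R for a purine and H for any base but G), and it is known to gather near stop codons and in long last exons. Neurotrophins are made as precursors, cleaved to their mature C-terminal part and secreted, and they support the survival, growth and synapses of neurons. BDNF binds TrkB and NT-3 binds mainly TrkC, while all neurotrophins bind p75 and the precursors bind sortilin together with p75. Both Ntrk2 and Ntrk3 also give truncated receptors that lack the kinase, made by splicing to an alternative last exon, and the main truncated TrkB of brain, TrkB.T1, is abundant in astrocytes. Bdnf transcripts are known to end at a short or a long 3′ UTR.

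The sequences shown for these peaks are GGAC sites, the core of DRACH in which m6A is placed most often. A GGAC followed by G lies outside DRACH but is counted here all the same. Bdnf codons 88 and 165 and the Ntrk2 site 932 nt after the full-length stop codon are examples. Each is shown 5′ to 3′ on the strand of its gene as 25 nt of the mm10 reference with the GGAC or GGACT in capitals, the A of the capitals being the adenosine that could carry the mark. The bases common to the peaks of both replicates held GGACT at 9 places, shown first because GGACT is the most frequent form of the core. They do not show which adenosine was methylated, since a peak spans 200 nt or more.
Bdnf CDS, codon 42, chr2:109723514-109723538 (+): cggacccatgGGACTctggagagcg
Bdnf CDS, codon 90, chr2:109723659-109723683 (+): ataaggacgcGGACTtgtacacttc
Ntrk3 5′ UTR, chr7:78578178-78578202 (−): ctaggaggtgGGACTtggtgacttt
Ntrk3 3′ UTR, 787 nt after the stop codon, chr7:78191760-78191784 (−): aaagggcagaGGACTccggggagag
Ntrk3 3′ UTR, 884 nt after the stop codon, chr7:78191663-78191687 (−): ttgaagaactGGACTtggtggatta
Ntrk3 3′ UTR, 973 nt after the stop codon, chr7:78191574-78191598 (−): atctctgggaGGACTcttggcctgt
Ntrk3 3′ UTR, 1595 nt after the stop codon, chr7:78190952-78190976 (−): gtgcactggaGGACTgcaaaagtga
Ntrk3 3′ UTR, 2014 nt after the stop codon, chr7:78190533-78190557 (−): ctgctcagctGGACTggggagggtg
Ngfr 3′ UTR, 366 nt after the stop codon, chr11:95570425-95570449 (−): ccagagccatGGACTccacactgtg

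The common bases of Ntf3, Ntrk2 and Sort1 held no GGACT. Their GGAC sites in the peaks the results turn on are given for that reason: the only site of Ntf3, the 5 sites in the peak over the stop codon of full-length TrkB, of which 1 lies near the stop codon and 3 nearly touch each other farther on, and the 2 sites of Sort1.
Ntf3 CDS, codon 184, chr6:126101978-126102002 (−): tgacattcggGGACaccaggtcaca
Ntrk2 3′ UTR, 123 nt after the full-length stop codon, chr13:59128464-59128488 (+): agtgttgacaGGACcaggagcggct
Ntrk2 3′ UTR, 844 nt after it, chr13:59129185-59129209 (+): tttctgaggaGGACacaggatgttg
Ntrk2 3′ UTR, 926 nt after it, chr13:59129267-59129291 (+): agttcccacgGGACctggacggaca
Ntrk2 3′ UTR, 932 nt after it, chr13:59129273-59129297 (+): cacgggacctGGACggacaacacat
Ntrk2 3′ UTR, 936 nt after it, chr13:59129277-59129301 (+): ggacctggacGGACaacacatccta
Sort1 3′ UTR, 504 nt after the stop codon, chr3:108357735-108357759 (+): tggcacacctGGACagcttttctcc
Sort1 3′ UTR, 1402 nt after the stop codon, chr3:108358633-108358657 (+): gttaccactaGGACattctctagta

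Most peaks of these genes were found in both replicates. Of the 18 peaks in replicate 1, 15 overlapped a replicate 2 peak by at least 1 base (83.3%), where 60.0% of all replicate 1 peaks did. Of the 20 peaks in replicate 2, 18 overlapped a replicate 1 peak, where 77.0% of the whole list did. The whole-list shares also count peaks outside exons, so they are not like for like with the exonic peaks of the 6 genes. Inside Ntrk2 and Ntrk3 but outside their exons, 2 of 9 replicate 1 peaks and 1 of 1 in replicate 2 were shared. Peaks that were each other's best overlap were taken as a matched pair, which gave 15 pairs: 6 in Ntrk2, 4 in Ntrk3, 2 in Sort1 and 1 each in Bdnf, Ntf3 and Ngfr. All 6 genes had a pair. Of all protein-coding genes 45.5% had one, and of those with a peak in either list 80.1%, and 6 genes are too few to set 6 of 6 apart from the second share. The lists hold no expression value, so whether these genes are more strongly transcribed in brain than others is not given by them.

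Fold enrichment is the linear ratio of IP over its own input at a peak, as the authors' peak caller reported it. The lists carry no read counts, coverage, summits or strand, so the depth behind a value is unknown and no counting interval can be attached. The replicate difference is therefore the measure of error. Replicate 1 gave the higher fold enrichment in 13 of the 15 pairs, beside 77.9% of all 22457 pairs. The median log2 ratio of replicate 1 to replicate 2 was 0.28 (SD 0.29, n = 15 pairs), from -0.06 to 0.95, beside a median of 0.37 (SD 0.48) over all pairs. The median fold enrichment of the whole lists was 2.88 in replicate 1 and 2.20 in replicate 2, and once each list was divided by its own median the log2 ratio of the 15 pairs changed sign, to -0.11. Levels are therefore compared below within a replicate, or by the lower of both values, which comes from replicate 2 for most pairs and from replicate 1 for some.

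**Figure D1:**
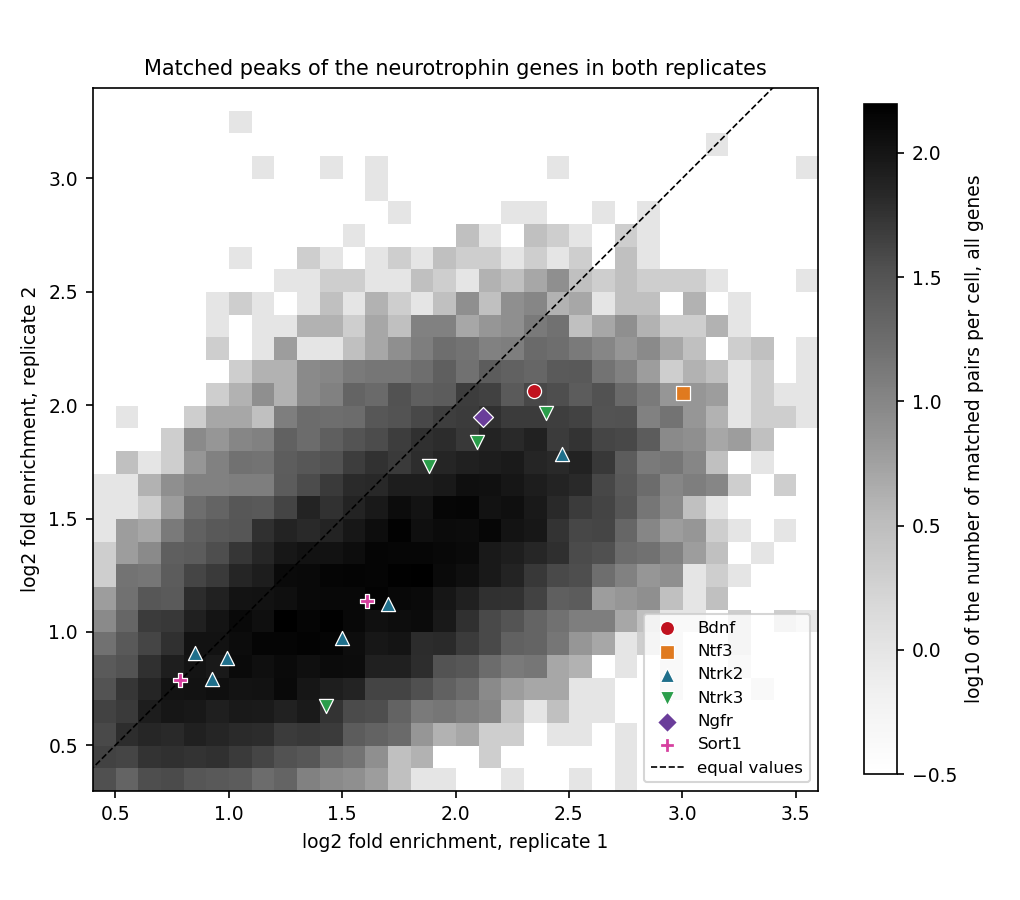
Log2 fold enrichment in replicate 1 (x axis) against replicate 2 (y axis) for the 15 matched pairs of the 6 genes (coloured symbols) over the 22457 pairs of all genes (grey, darker where more pairs fall). The dashed line marks equal values, 13 of the 15 symbols lie to its right, and Ntf3 lies farthest from it with a log2 ratio of 0.95.

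Bdnf, the ligand of TrkB (chr2:109674700-109727007, plus strand, 11 transcripts), carried 1 peak in each replicate, and it lay over the coding sequence. The peak was at chr2:109723382-109724211 with a fold enrichment of 5.09 in replicate 1 and at chr2:109723382-109724159 with 4.18 in replicate 2. These values exceeded those of 90.2% and 96.4% of the peaks in the respective lists. Both peaks began at the same base, the first of the last exon, which all 11 annotated transcripts share. They took in the 21 nt of 5′ UTR of that exon in the isoform with the shorter CDS, all 249 codons and the stop codon, and ended 59 and 7 nt after it.

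The long 3′ UTR of Bdnf was almost free of peaks. It spans 2855 nt, of which 2.07% lay under the replicate 1 peak and 0.245% under the replicate 2 peak, all of it directly behind the stop codon, and neither list held another peak there. The polyadenylation signals AATAAA and ATTAAA occurred in it 5 and 3 times, with the first at 284 nt and the last at 2770 nt after the stop codon, so the peaks ended before the first of them. Which of these signals was used in the sampled brains is not given by the lists.

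GGAC was unevenly spread along the Bdnf transcript in the same direction as the peak. The CDS held 8 GGAC, or 10.7 per kb, and the 3′ UTR held 5, or 1.75 per kb. GGACT occurred at 2 places in the CDS and at 1 in the 3′ UTR. DRACH did not follow this: it occurred at 18 places in the 750 nt of CDS and 66 in the 2855 nt of 3′ UTR. For the length of each region, its density was nearly the same in both. Among 800 matched pairs of all genes with a length within 10% of that of Bdnf, the median count of GGAC was 4, and 87.3% had fewer than the 8 of Bdnf.

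Ntf3, the gene of NT-3 (chr6:126101412-126166910, minus strand, 3 transcripts), showed the strongest peak of the set in replicate 1. Its single peak was at chr6:126101656-126102397 with a fold enrichment of 8.01 in replicate 1, above 99.3% of that list. In replicate 2 it was at chr6:126101709-126102153 with 4.15, above 96.3%. The replicates differed by 0.95 on the log2 scale, the widest gap of the 15 pairs. The peak covered codons 49 to 271 in replicate 1 and 130 to 271 in replicate 2 of the 271 codons, and ended 70 and 17 nt after the stop codon of a 3′ UTR of 314 nt. The bases common to both replicates were C-terminal coding sequence and the stop codon, in the last exon, where those of Bdnf took in the whole coding sequence. Unlike Bdnf, they held only 1 GGAC, against a median of 3 in 1550 pairs of like length, with DRACH at 19 places against a median of 10.

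**Figure D2:**
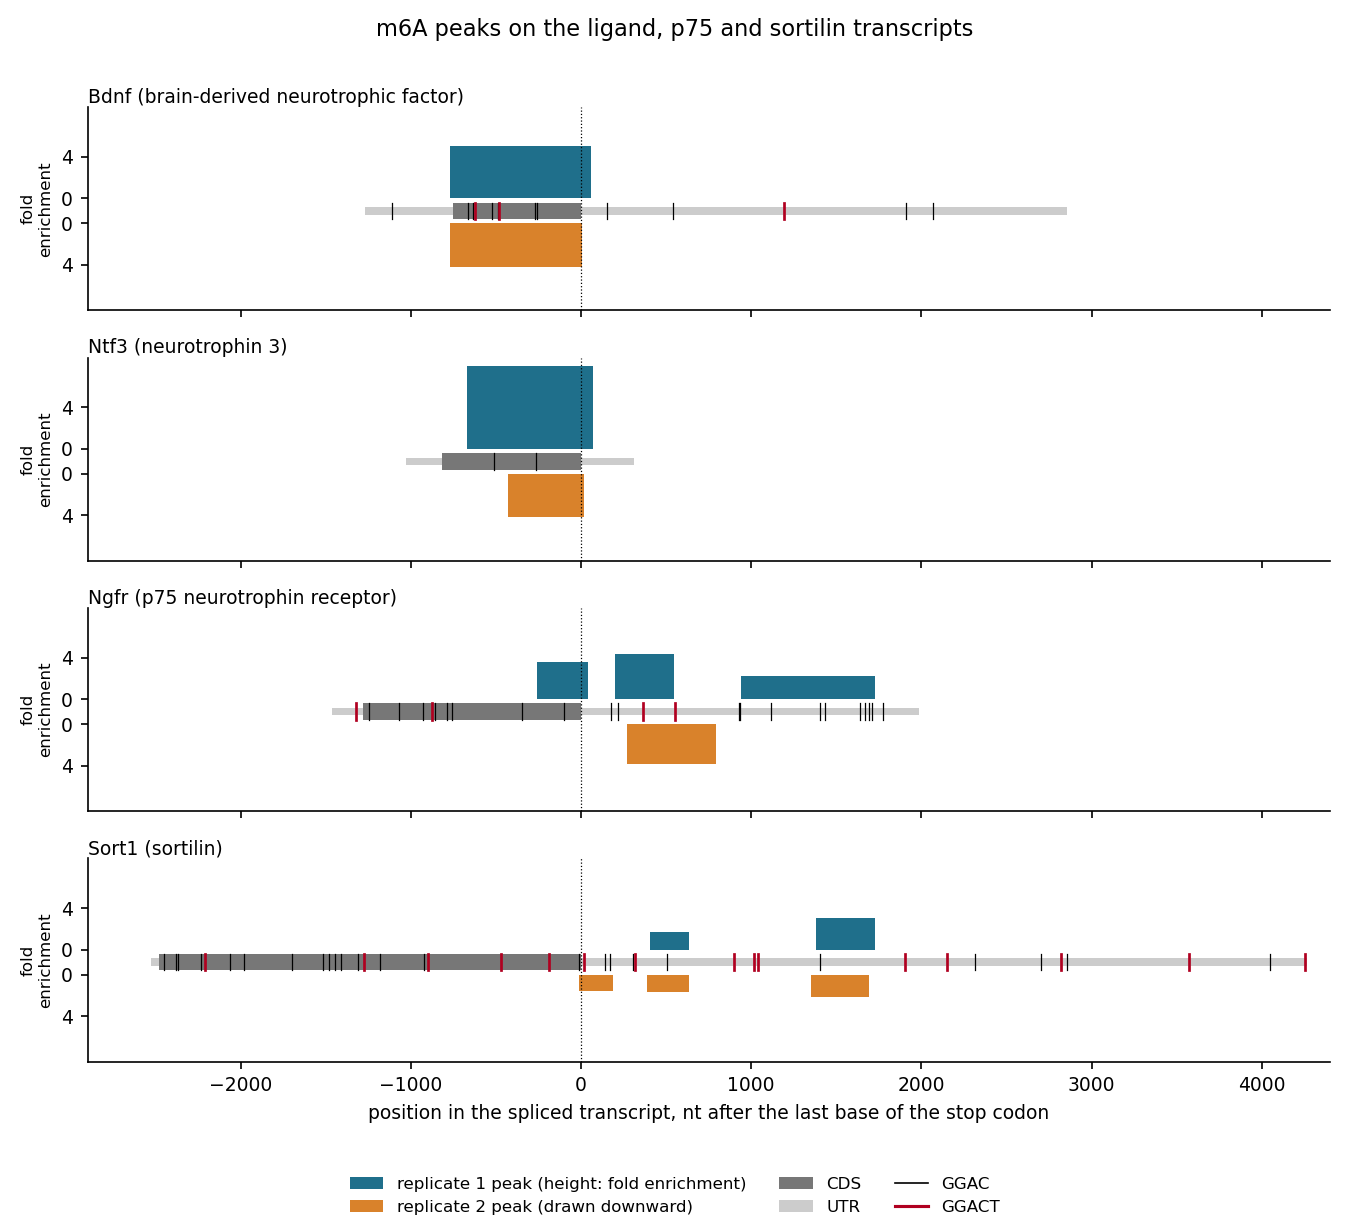
Peaks of replicate 1 (blue, upward) and replicate 2 (orange, downward) on the spliced transcripts of Bdnf, Ntf3, Ngfr and Sort1, with height giving fold enrichment and the x axis giving nt after the last base of the stop codon (dotted line). Dark grey is CDS, light grey is UTR, and ticks mark GGAC (black) and GGACT (red): the ligand peaks lie over the CDS and end at the stop codon, while the matched peaks of Ngfr and Sort1 lie in the 3′ UTR.

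The single peak of each ligand was among the stronger ones of the transcriptome in both replicates. When each gene was given the pair whose lower replicate was highest, Bdnf exceeded 95.0% and Ntf3 94.8% of the 9992 protein-coding genes with a pair. Ntf5, which encodes the further TrkB ligand NT-4, had no peak in either list.

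Ntrk2, the gene of TrkB (chr13:58806569-59133970, plus strand, 10 transcripts), had 6 peaks in each replicate, and all of them paired. That was more pairs than 95.6% of the genes with a pair had, beside a median of 2, although its exons also add up to 19292 nt. One pair covered the start codon, 1 the 3′ UTR of truncated TrkB.T1, and 4 the last exon of full-length TrkB.

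The start codon of TrkB, shared by the full-length and truncated forms, lay under a peak at chr13:58808501-58808840 in replicate 1 (fold enrichment 2.83) and at chr13:58808445-58808840 in replicate 2 (1.96). Both ended at the same base, inside the exon. They covered 228 and 284 nt of the 5′ UTR and codons 1 to 38, which begin with the signal peptide of the receptor. Their common bases held 3 GGAC.

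The strongest peak of full-length TrkB ran over the stop codon into the 3′ UTR. It spanned chr13:59128213-59129744 with 5.53 in replicate 1 and chr13:59128264-59129803 with 3.45 in replicate 2, above the other 5 pairs of Ntrk2 in both replicates. It ran from codon 776 of 821 to 1391 nt after the stop codon in replicate 1 and from codon 793 to 1450 nt in replicate 2. An annotated isoform with a short 3′ UTR of 1612 nt ends shortly behind it, and the peak covered 86.3% and 90.0% of that 3′ UTR. The common bases held the 5 GGAC sites shown above, fewer than the median of 8 among 158 pairs of like length.

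Further downstream, 3 more pairs lay behind the end of that short isoform, in the long 3′ UTR of 5617 nt. The next one was at chr13:59130652-59131061 with 3.25 in replicate 1 and chr13:59130739-59131036 with 2.18 in replicate 2, 2299 to 2708 and 2386 to 2683 nt after the stop codon. It was followed by chr13:59131392-59131657 with 1.81 and chr13:59131321-59131624 with 1.88, from 3039 and 2968 nt. The last was at chr13:59133132-59133358 with 1.99 and chr13:59133142-59133432 with 1.85, which left 612 and 538 nt to the 3′ end. In both replicates the fold enrichment was thus highest in the pair that covers the stop codon, whose midpoint lies 651 nt behind it. Next highest in both was the pair whose midpoint lies 2534 nt behind the stop codon. The last 2 pairs changed places between the replicates. In all, 40.8% and 41.7% of the long 3′ UTR lay under peaks, compared with the 2.07% and 0.245% in Bdnf. Input coverage is not given, so in Bdnf a 3′ UTR without m6A and one with too little RNA to call a peak cannot be told apart.

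The pair at chr13:59130739-59131036 was the only one of the 15 without GGAC, and it held no DRACH either. Of 2394 pairs of like length, 11 (0.459%) had no DRACH and the median was 7. Purines made up 69.5% of its bases, a share higher than in 95.9% of all pairs, with the longest unbroken run of purines 33 nt. The run does not set it apart, since the distal pair of Sort1, with DRACH at 4 places, had a run of 46 nt.

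TrkB.T1 did not repeat the pattern of full-length TrkB at its own stop codon. Its alternative last exon (chr13:58932023-58937027) had no peak at the stop codon in either list, and the first one began 3214 nt after it. Its only pair was at chr13:58935451-58935704 with 1.90 in replicate 1 and chr13:58935274-58935672 with 1.73 in replicate 2, 3391 to 3644 and 3214 to 3612 nt after the stop codon, covering 5.11% and 8.03% of a 3′ UTR of 4967 nt. The isoform of TrkB.T1 with the short 3′ UTR of 1060 nt had no peak in its last exon. GGAC was present there: the T1 3′ UTR held 17, of which 4 were GGACT, in 4967 nt, against 12 and 2 in the 5617 nt of the long full-length 3′ UTR. The other annotated truncated ends had no peak past the start codon. Since the lists do not give input coverage, a truncated end without a peak and a truncated end with too little RNA to call one cannot be told apart.

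**Figure D3:**
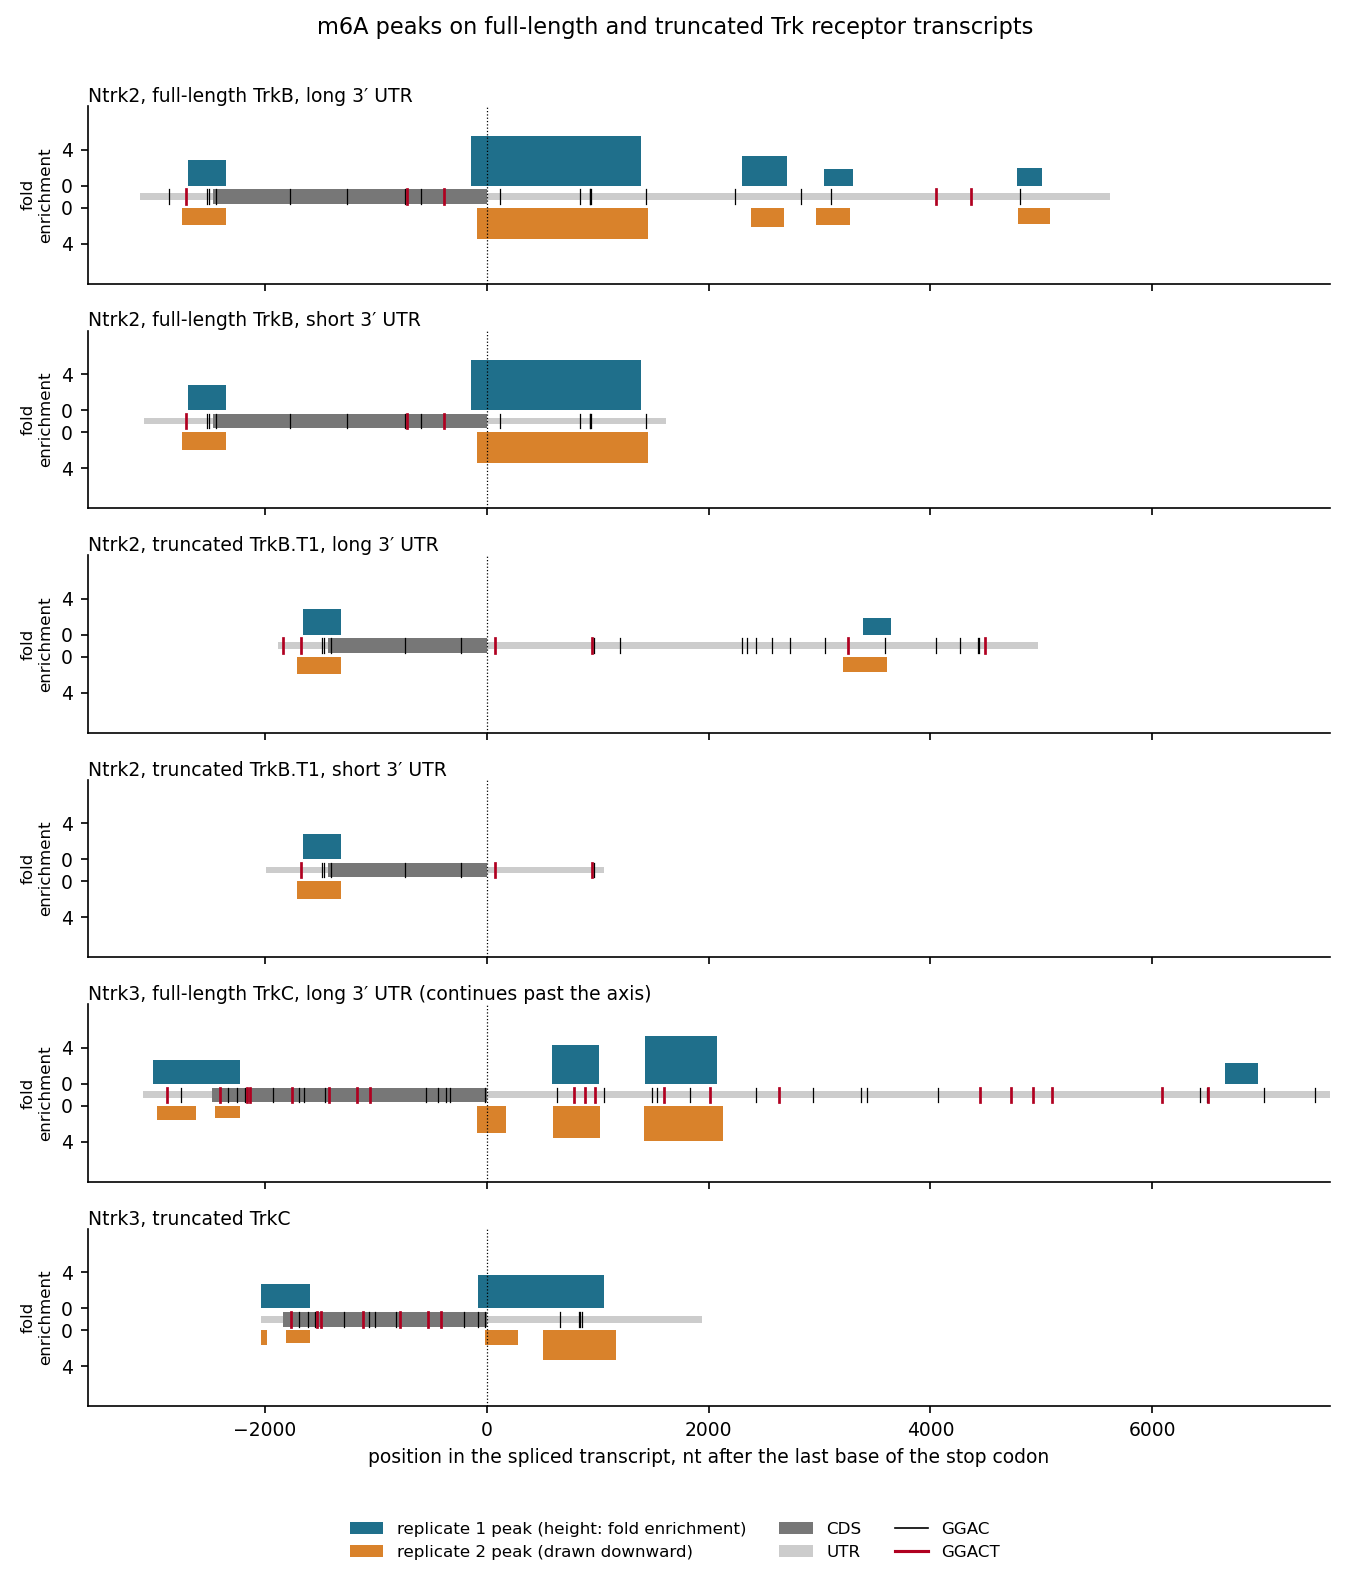
Peaks of replicate 1 (blue, upward) and replicate 2 (orange, downward) on full-length and truncated transcripts of Ntrk2 and Ntrk3, with height giving fold enrichment and the x axis giving nt after the last base of each isoform's own stop codon (dotted line). Peaks in shared exons are drawn on every isoform that holds them. Full-length TrkB and truncated TrkC have peaks at the stop codon in both replicates, full-length TrkC in replicate 2 and TrkB.T1 in neither. The replicate 2 peak at the stop codon of truncated TrkC is weak (1.61).

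Ntrk3, the gene of TrkC (chr7:78175959-78738012, minus strand, 20 transcripts), had 5 peaks in replicate 1 and 8 in replicate 2, which gave 4 pairs. Truncated TrkC had a peak over its stop codon in both replicates, unlike TrkB.T1, and full-length TrkC had one over its stop codon in replicate 2. For truncated TrkC in replicate 2 this rests on an unpaired peak of 1.61, which exceeded only 16.9% of that list. The bases common to the matched 3′ UTR peaks lay behind the stop codon in both isoforms.

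Truncated TrkC (612 codons) carried a pair at chr7:78301570-78302712 with 3.69 in replicate 1 and chr7:78301462-78302121 with 3.32 in replicate 2. The replicate 1 peak covered the stop codon and the following 1059 nt. In replicate 2 the same stretch was split into the paired peak, 508 to 1167 nt after the stop codon, and a weaker one at chr7:78302344-78302647 with 1.61 that covered the stop codon. Together 54.6% and 48.7% of the 1939 nt of its 3′ UTR lay under peaks, beside 5.11% and 8.03% for long TrkB.T1. All 4 GGAC of that 3′ UTR lay in the bases common to the pair.

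Full-length TrkC (825 codons) has a 3′ UTR of 16600 nt, and both of its 3′ UTR pairs lay within the first 2129 nt. The nearer one was at chr7:78191550-78191973 with 4.28 in replicate 1 and chr7:78191540-78191965 with 3.57 in replicate 2, 586 to 1009 and 594 to 1019 nt after the stop codon. The other was at chr7:78190480-78191135 with 5.28 and chr7:78190430-78191138 with 3.91, 1424 to 2079 and 1421 to 2129 nt after it. It was the strongest peak of the gene in both replicates. These 2 pairs held 5 of the 9 GGACT sites of the set, 3 in the nearer and 2 in the other.

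Peaks seen in a single list also fell in this 3′ UTR. Replicate 2 alone had a peak over the full-length stop codon, at chr7:78192386-78192644 with 2.998, from -85 to 173 nt relative to the last base of the stop codon. Replicate 1 alone had one far downstream at chr7:78185604-78185903 with 2.34, 6656 to 6955 nt after it. The remaining 9645 nt to the 3′ end had no peak in either list, and 8.31% and 7.88% of the whole 3′ UTR lay under peaks.

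The 5′ end of Ntrk3 had a pair as well, at chr7:78577441-78578314 with 2.69 in replicate 1 and chr7:78577927-78578276 with 1.60 in replicate 2. The replicate 1 peak included the start codon and codons 1 to 83. The paired replicate 2 peak lay in the 5′ UTR, and a second one at chr7:78577536-78577760 with 1.37, also under the replicate 1 peak, covered codons 8 to 83. So both Trk receptors of the set had a peak at the 5′ end of the coding sequence in both replicates. For Ntrk3 in replicate 2 this rests on the unpaired peak of 1.37, which exceeded only 5.18% of that list. In both genes the peak was weaker than the strongest peak of the last exon. A further replicate 2 peak at chr7:78578613-78579317 (2.20) touched the first exon of a Ntrk3 isoform. It overlapped a replicate 1 peak at chr7:78578761-78579363 (4.23) that had no base in an Ntrk3 exon. Both lie over Gm9885, annotated on the opposite strand at chr7:78578830-78581038. The lists carry no strand, so signal from Ntrk3 and from Gm9885 cannot be told apart there.

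Ngfr, the gene of p75 (chr11:95568818-95587735, minus strand, 1 transcript), had 3 peaks in replicate 1 and 1 in replicate 2, all in the last exon. The pair was at chr11:95570257-95570604 with 4.36 in replicate 1 and chr11:95570007-95570533 with 3.86 in replicate 2, 199 to 546 and 270 to 796 nt after the stop codon. Replicate 1 alone had a peak over the stop codon at chr11:95570763-95571059 with 3.63, reaching back to codon 343 of 427. It also alone had a weaker one at chr11:95569073-95569864 with 2.24, 939 to 1730 nt after the stop codon. As a result 59.4% of the 1985 nt of 3′ UTR lay under peaks in replicate 1 and 26.5% in replicate 2. The density of GGAC was no guide to the shared peak: its common bases held a single GGAC (within the GGACT shown above), or 3.61 per kb, while the rest of the transcript held 7.26 per kb.

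Sort1, the gene of sortilin (chr3:108284082-108361511, plus strand, 3 transcripts), had the lowest strongest pair of the 6 genes in both replicates. Its 2 pairs lay in the 3′ UTR. The nearer was at chr3:108357650-108357878 with 1.72 in replicate 1 and chr3:108357630-108357879 with 1.73 in replicate 2, from 407 and 387 nt after the stop codon. The other was at chr3:108358626-108358968 with 3.05 and chr3:108358597-108358933 with 2.20, from 1383 and 1354 nt. Replicate 2 alone had a peak over the stop codon, at chr3:108357229-108357428 with 1.58. GGAC was denser in the CDS of Sort1 (8.07 per kb) than in its 3′ UTR (4.45 per kb), as it was in Bdnf, but the peaks lay in the 3′ UTR. The CDS of 825 codons held 20 GGAC and had 0 nt under peaks in replicate 1 and 15 nt in replicate 2, and none of the 15 GGACT of the transcript lay under a pair. The density of GGAC was 3.72 per kb under the pairs and 5.91 per kb in the rest of the transcript.

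Ordered by the strongest pair of each gene, the third place (Ntrk3) and the last place (Sort1) were the same in both replicates and the other places were not. In replicate 1 the order was Ntf3 (8.01), Ntrk2 (5.53), Ntrk3 (5.28), Bdnf (5.09), Ngfr (4.36) and Sort1 (3.05). In replicate 2 it was Bdnf (4.18), Ntf3 (4.15), Ntrk3 (3.91), Ngfr (3.86), Ntrk2 (3.45) and Sort1 (2.20). With 2 replicates no exact test of a gene against its neighbour can reach a low p-value, and the first 5 are not separated by their replicate spread. The lower replicate of the strongest pair exceeded that of 82.3% of genes with a pair in Ntrk2, 91.8% in Ntrk3 and 91.1% in Ngfr, but 28.1% in Sort1. Fold enrichment also depends on input coverage and peak width, so it does not give the share of molecules that carry m6A.

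Across the set, 14 of the 15 pairs held GGAC in the exonic bases common to both replicates, beside 76.4% of 19528 pairs that belong to a single protein-coding gene. Longer intervals hold more motifs by their length, and against pairs of like length the set did not stand on 1 side: 5 pairs had more GGAC than the median of their length class and 5 had fewer. GGACT was present in 5 of the 15, a count that has no share over all pairs beside it and so is not called high or low. The distance from the stop codon varied widely. On the isoform that holds them, 6 of the 15 pairs had their midpoint over 1000 nt after the stop codon: 4 in Ntrk2 (TrkB.T1 included), 1 in Ntrk3 and 1 in Sort1. On the transcript with the longest CDS of each gene, 10 of the pairs could be placed and 4 of these lay that far downstream, beside 6.11% of 17431 pairs of all genes placed in the same way. These 4 came from Ntrk2 and Sort1, and 3 of them share a single exon.

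50 other genes of the pathway were grouped by role, and 46 of them (92%) had a matched pair, with a median of 2 pairs per gene. All 4 of the further sorting receptors did. Among the proteases that process the precursors 6 of 8 had a pair, among adaptors of p75 7 of 7, among adaptors of Trk receptors 24 of 25, and among genes of Trk ubiquitination and trafficking 5 of 5. The list was drawn up from known roles, many of its members are broadly expressed signalling genes, and the share over all protein-coding genes was 45.5%. Of 47 receptor tyrosine kinases outside the Trk family, 35 (74.5%) had a pair, also beside 45.5% of all protein-coding genes, with up to 7 pairs in Lmtk2. In Ntrk2 there were 6. Both lists were chosen with earlier results of these data known, so neither share is an independent comparison with 45.5%.

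The strongest matched peaks of the pathway genes fell at different places of the mRNA. Irs1, an adaptor of receptor tyrosine kinases, reached 6.71 and 6.67 in its 3′ UTR. Sorl1, a sorting receptor related to sortilin, reached 5.83 and 4.48, with its midpoint 3392 nt after the stop codon. Crkl, an adaptor downstream of Trk receptors, reached 4.38 and 4.63, with the midpoint 310 nt after the stop codon. Nck1, an SH2 and SH3 adaptor, reached 4.80 and 4.33. Its midpoint lay in the CDS but close to the stop codon, at -49 nt relative to its last base. Crk, an adaptor related to Crkl, reached 4.59 and 3.73 with the midpoint in its CDS, at -420 nt. The median over genes of the lower replicate of the strongest pair was 3.89 for the 6 neurotrophin and receptor genes, 2.56 for the pathway genes, 2.83 for the other receptor tyrosine kinases and 2.64 for all genes with a pair. Single genes of each list overlapped the range of the 6.

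**Figure D4:**
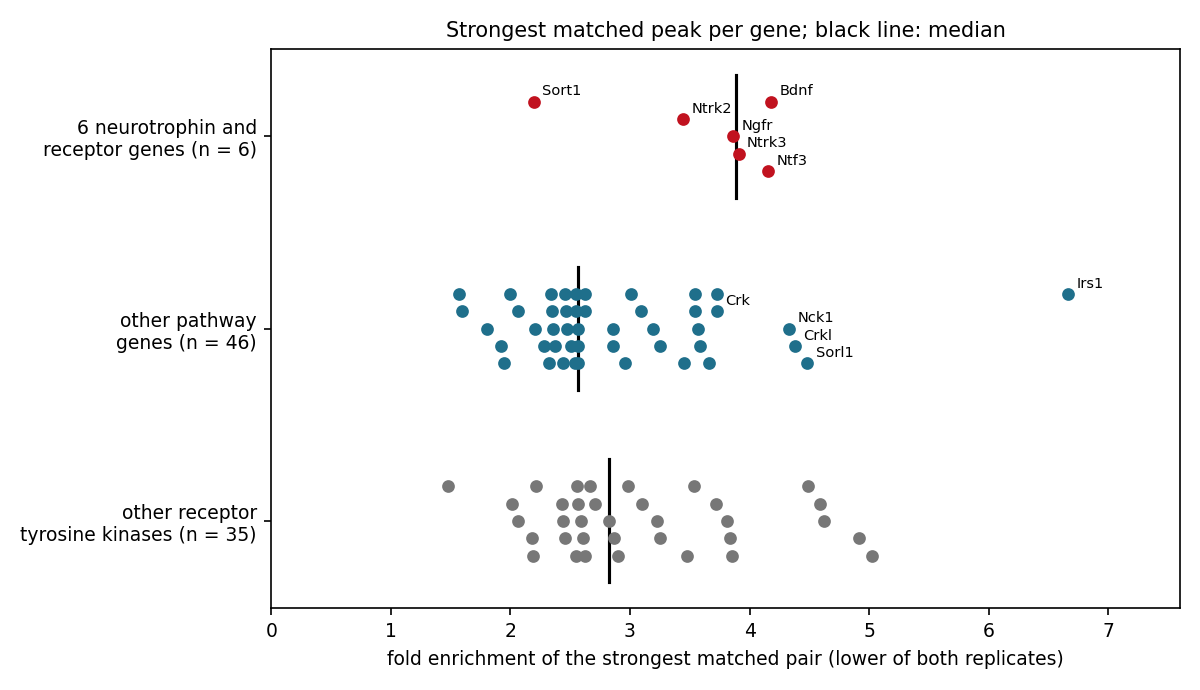
Fold enrichment of the strongest matched pair of each gene, given as the lower of both replicates (x axis), for the 6 neurotrophin and receptor genes, the 46 other pathway genes with a pair and the 35 other receptor tyrosine kinases with a pair. Each point is a gene and the black lines are medians, at 3.89, 2.56 and 2.83; Sort1 lies at 2.20, below all 3 lines.

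The genes most like each of the 6 were chosen by an equal number of pairs and the smallest distance between the log2 fold enrichments of the strongest pair in both replicates. For Bdnf it was Bmpr1b (5.09 and 4.16), out of 4370 genes with 1 pair. For Ntrk2 it was Tsc1 (5.46 and 3.42), out of 197 genes with 6 pairs, and for Ntrk3 it was Marf1 (5.23 and 3.92), out of 668 with 4. Adgra3 (8.02 and 3.92) was nearest to Ntf3, Zfp157 (4.37 and 3.88) to Ngfr and Ptpn9 (3.07 and 2.22) to Sort1. These likenesses rest on 2 values per gene.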

How the data were processed

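RNA from whole brain was measured by m6A-seq in 2 IP and 2 input samples, and groups and replicate numbers follow the labels. The submitters' processing notes name TopHat2 2.0.9, MACS2 and the build mm10; by the study's methods, peaks were called for each IP replicate against its own input, without a fragment model and with duplicates kept, which can raise the value of peaks built on few molecules. The deposited enrichment is a linear fold ratio of IP over input from the authors' peak caller, and depth per sample is not given in the sources used here. Coordinates were used as deposited, with both ends counted.

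Peaks were set on GENCODE M21 exons and the GRCm38 sequence (Python 3.11.15, numpy 2.4.6, pysam 0.24.0). A peak was shared with at least 1 common base, and mutual best overlaps formed matched pairs. Motif letters were looked for on the coding strand of each gene, overlapping sites counted, in the exonic bases common to a pair; like length means within 10%. The functions were tested on simulated peaks and transcripts. There is 1 condition, so no test was run. The genes and lists were chosen with earlier results of these data known. Genes named are the 6 listed, the 5 pathway genes whose strongest pair has the highest lower replicate, and the nearest gene to each member; Ntf5, Lmtk2 and Gm9885 were named after their values were seen. Some pathway genes are not reported here. Alternatives changed the overlap, a fold minimum of 2 or 3, the assignment to exons, the motif and the scaling.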

Additional observations from a re-analysis of the deposited data

Results flagged for a closer look

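Ntrk2 held a peak in both lists outside its annotated exons, a kind of peak that the counts above leave out. It lay at chr13:58906459-58906755 with a fold enrichment of 3.80 in replicate 1 and at chr13:58906504-58906707 with 3.70 in replicate 2. It was 17980 and 18025 nt from the nearest Ntrk2 exon, and no exon of another annotated gene lay under it. GGAC occurred at 2 places in it on the strand of Ntrk2. In replicate 1 there were 9 peaks inside Ntrk2 and Ntrk3 but outside their exons, with fold enrichments from 3.11 to 4.42. Among them was the peak over Gm9885 described above, and 2 of the 9 overlapped a replicate 2 peak. In replicate 2 the Ntrk2 peak was the only one outside the exons. The part that unspliced RNA or an unannotated exon has in it was not tested, and no control sample has a peak list.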

How the results depend on the processing

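Over 13 results, 96 alternative values were computed: 76 stayed within 1.5 times the count, or within the spread between pairs, 19 moved and 1 changed sign. The median log2 ratio of replicate 1 to replicate 2 of 0.28 became -0.11 with each list divided by its own median. The 15 pairs fell to 9 when both lists were cut at a fold of 2 and to 7 at a fold of 3, the 18 replicate 1 peaks to 10 at a fold of 3, and the 20 replicate 2 peaks to 11 and 7, or to 13 on exons of the transcript with the longest CDS. The 14 pairs with a motif became 5 with GGACT, 9 on that transcript, and 8 and 7 at the fold minimums of 2 and 3. The 46 pathway genes with a pair fell to 16 at a fold minimum of 3. Without replicate 1 or without replicate 2, 6 genes of the set and 47 of the pathway had a peak, in both cases. By gene, Ntrk2 fell from 6 pairs to 2 and 1 and Sort1 from 2 to 1 and 0 at the fold minimums of 2 and 3. Ngfr fell to 0 with midpoints within 100 bp, where Ntrk3 fell to 2, as it did with overlap of at least 50% of both peaks. Ntrk3 fell to 0 on the transcript with the longest CDS. Its 3′ UTR of 179 nt leaves out the pairs of the long one. It also has a 5′ UTR of 0 nt and lacks the last exon of truncated TrkC, which leaves out the other pairs. The fold minimums, the single transcript and GGACT count fewer peaks, exons or sites by construction, the other overlap rules match fewer peaks, and the sign change comes with the rescaling of each list. No paired analysis was possible because there is 1 condition with a peak list. Unknown depth limits every value.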
